A study of Mus musculus with 81 samples.

Results

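Expression of 10 transcription factors of the T lineage (Tcf7, Lef1, Gata3, Bcl11b, Tcf12, Ikzf1, Tox, Runx1, Runx3 and Zbtb7b) was described across normal mouse thymus and thymic lymphomas. They were taken by symbol from a table of 51826 genes, where each of the 10 was found once, and all 10 passed the filter on low counts. The 81 libraries came from 40 mice of a mixed C57BL/6 x 129S4Sv/Jae background. Every animal, controls included, carried the centriole kinase Plk4 under doxycycline control at Col1a1, and the rtTA transactivator and centrin-GFP at Rosa. The 8 control thymuses were normal, p53+/+ and untreated. There were 10 mice with p53-/- lymphomas that were left untreated (23 libraries), 9 with treated p53-/- lymphomas (18 libraries) and 12 with treated lymphomas of p53+/- genotype (31 libraries). Treatment was doxycycline for 2 weeks starting at 30 days of age, a design meant to switch the transgene on for that period only. Its induction was not tested here. Ages of the mice at collection are not given in the sources used here. According to its design text, the series addressed the effect of aneuploidy on tumour development. One further untreated p53+/- normal thymus (mouse 819) entered no main comparison. None of the 81 libraries came from an untreated p53+/- lymphoma. Treated p53+/- lymphomas therefore differ from untreated p53-/- lymphomas and from the controls in both genotype and treatment, which cannot be told apart there.

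T-cell progenitors that settle in the thymus receive Notch signals, and Tcf7 (TCF-1) and Gata3 are among the first T-lineage factors to be switched on. Bcl11b then closes off other fates, while Lef1 shares the DNA-binding domain of TCF-1, and the E protein Tcf12 (HEB) and the zinc finger factor Ikzf1 (Ikaros) act through most stages. After positive selection, Tox and Zbtb7b (ThPOK) serve the CD4 lineage and Runx3 the CD8 lineage, and Runx3 and Zbtb7b are known to repress each other. Runx1 acts from the earliest progenitors on, and Ikzf1 and Bcl11b are known tumour suppressors in mouse thymic lymphoma.

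Library totals ranged from 1030400 to 26871729 counts, and the biopsies of one tumour were summed so that the mouse was the replicate. Levels are CPM (counts relative to the total of a library) after TMM scaling, those of Cd4 and Cd8a included. Other marker genes, marker sums and Trp53 are CPM over all genes. Trp53 was at 59.8 to 130 CPM in the normal thymuses and at 8.11 to 93.7 CPM in lymphomas of untreated p53-/- mice. It was at 24.5 to 62.3 CPM in the treated p53-/- group and at 15.4 to 58.8 CPM in the treated p53+/- group. The labels do not give the deleted part of the gene, so a count over the whole gene does not test the genotype. Xist and Y-linked genes did not match the labelled sex in 3 of the 40 mice, namely 869 and 870 (treated p53-/-, labelled female) and 328 (treated p53+/-, labelled male). The libraries are of bulk tissue, in which fewer cells of a type and less RNA per cell cannot be told apart.

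A normal thymus and a lymphoma stood apart before any comparison. In the normal thymus of mouse 387, all 10 T-lineage markers were below the other 7 normal thymuses (summed level 1060 CPM, against a group median of 7950 CPM), and all 8 B-lineage markers were above them. All 8 markers of thymic epithelium were below the other normal thymuses, while all 5 fibroblast, all 4 endothelial, all 6 erythroid and 4 of 7 fat markers were above them. Of the 10 factors, 8 were lowest in that thymus, while Runx3 and Zbtb7b were highest there. In the untreated p53-/- lymphoma of mouse 881, 7 of 10 T-lineage markers were below the other 30 lymphomas and 7 of 8 B-lineage markers were above them. Cd79a, a signalling chain of the B-cell receptor, was at 846 CPM and Pax5, the B-lineage commitment factor, at 903 CPM, while Cd3e, a chain of the T-cell receptor complex, was at 1.77 CPM. Its T-lineage markers summed to 195 CPM and its B-lineage markers to 3850 CPM, against 1740 to 6550 CPM and 12 to 475 CPM in the other 30. The other 30 lymphomas had Cd3e between 129 and 798 CPM. Results are given with and without mice 387 and 881 where that changes a call.

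Runx3 and Zbtb7b differed from normal thymus in opposite directions in every lymphoma group, so upstream sequences of both are shown first, with one of Lef1, which varied widely between biopsies. These windows were chosen because they hold a motif searched and lie outside coding and untranslated exons. Of the other starts of the same genes, that of Zbtb7b farther upstream had an E-box, an RBPJ and 2 ETS matches but no RUNX match, while 3 starts of Lef1 and 1 of Runx3 had no match. The windows cover the 250 bases before a RefSeq transcription start in build GRCm38.p6, from 5′ to 3′ on the strand of the gene. In the first, for a start of Runx3 at chr4:135120395-135120644 on the plus strand, capitals mark an E-box (CAGGTG) at position -233 from the start and a pair of RUNX motifs (TGTGGT, read here as ACCACA) at -134 and -126. In that window, 53 bases also lie in exons of the noncoding gene Gm16225. The second is the window of an internal start of Zbtb7b at chr3:89387672-89387921 on the minus strand, with a RUNX motif in capitals at -89. The third belongs to an internal start of Lef1 at chr3:131156044-131156293 on the plus strand, with 2 TCF/LEF motifs (CTTTGA, read here as TCAAAG) at -180 and -120 and an ETS motif (GGAAGT) at -12 in capitals.
Runx3: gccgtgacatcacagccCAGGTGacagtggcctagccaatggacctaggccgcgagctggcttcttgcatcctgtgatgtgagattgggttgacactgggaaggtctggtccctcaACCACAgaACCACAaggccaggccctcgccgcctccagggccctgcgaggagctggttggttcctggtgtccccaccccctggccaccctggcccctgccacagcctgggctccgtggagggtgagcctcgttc
Zbtb7b: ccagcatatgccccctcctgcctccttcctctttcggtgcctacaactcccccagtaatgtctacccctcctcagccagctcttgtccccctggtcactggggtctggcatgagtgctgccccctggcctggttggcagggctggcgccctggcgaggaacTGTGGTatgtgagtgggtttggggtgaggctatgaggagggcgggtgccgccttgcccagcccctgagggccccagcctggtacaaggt
Lef1: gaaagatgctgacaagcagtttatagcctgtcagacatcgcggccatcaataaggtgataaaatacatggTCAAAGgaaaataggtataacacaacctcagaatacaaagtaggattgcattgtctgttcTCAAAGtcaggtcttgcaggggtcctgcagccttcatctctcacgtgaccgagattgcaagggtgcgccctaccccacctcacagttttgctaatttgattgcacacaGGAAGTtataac

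Of the 10 factors, 9 matched the RefSeq table, with 19 starts between them. On either strand, RUNX (TGTGGT) was found in 14% of all 32851 windows of that length and in 2 of the 19, those of Runx3 and Zbtb7b. TCF/LEF (CTTTGA) was in 13.8% of all windows and in 2 of the 19, and ETS (GGAAGT) in 19.7% and 5 of the 19. The E-box (CAGGTG) was in 17.2% of all windows and 3 of the 19, RBPJ (GTGGGAA) in 5.42% and 1 of the 19, and the motif of the GATA factors (AGATAA) in 9.99% and 0 of the 19. Matches of different motifs were counted also where they overlap. A match describes letters only, and counts per gene do not tell which start was used.

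Against normal thymus, Runx3 and Zbtb7b of the CD8 and CD4 choice differed from normal thymus 2.58- to 5.89-fold in all 3 lymphoma groups, while the factors of T-cell commitment were not called. In edgeR's quasi-likelihood test with Benjamini-Hochberg adjustment over 17841 genes, 4 of the 10 factors were called (adjusted p under 0.05) in untreated p53-/- lymphomas, where 40.7% of all genes were called. In treated p53-/- lymphomas 6 of 10 were called, against 52.1% of all genes, and in treated p53+/- lymphomas 4 of 10, against 50.9%. The factors called higher numbered 3, 4 and 3, beside 23.2%, 25.4% and 25.6% of all genes, and those called lower 1, 2 and 1, beside 17.6%, 26.7% and 25.3%. The shares of the factors in either direction lie near the background. The median log2 fold changes of the 10 factors were 0.50, 0.51 and 0.59, beside 0.08, -0.04 and 0.00 for all genes, in the same order of groups. Runx3, Tcf12 and Ikzf1 were higher and Zbtb7b was lower in all 3 comparisons, which share the normal thymuses. Bcl11b, Gata3, Tcf7 and Lef1 were called in none.

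**Figure D1:**
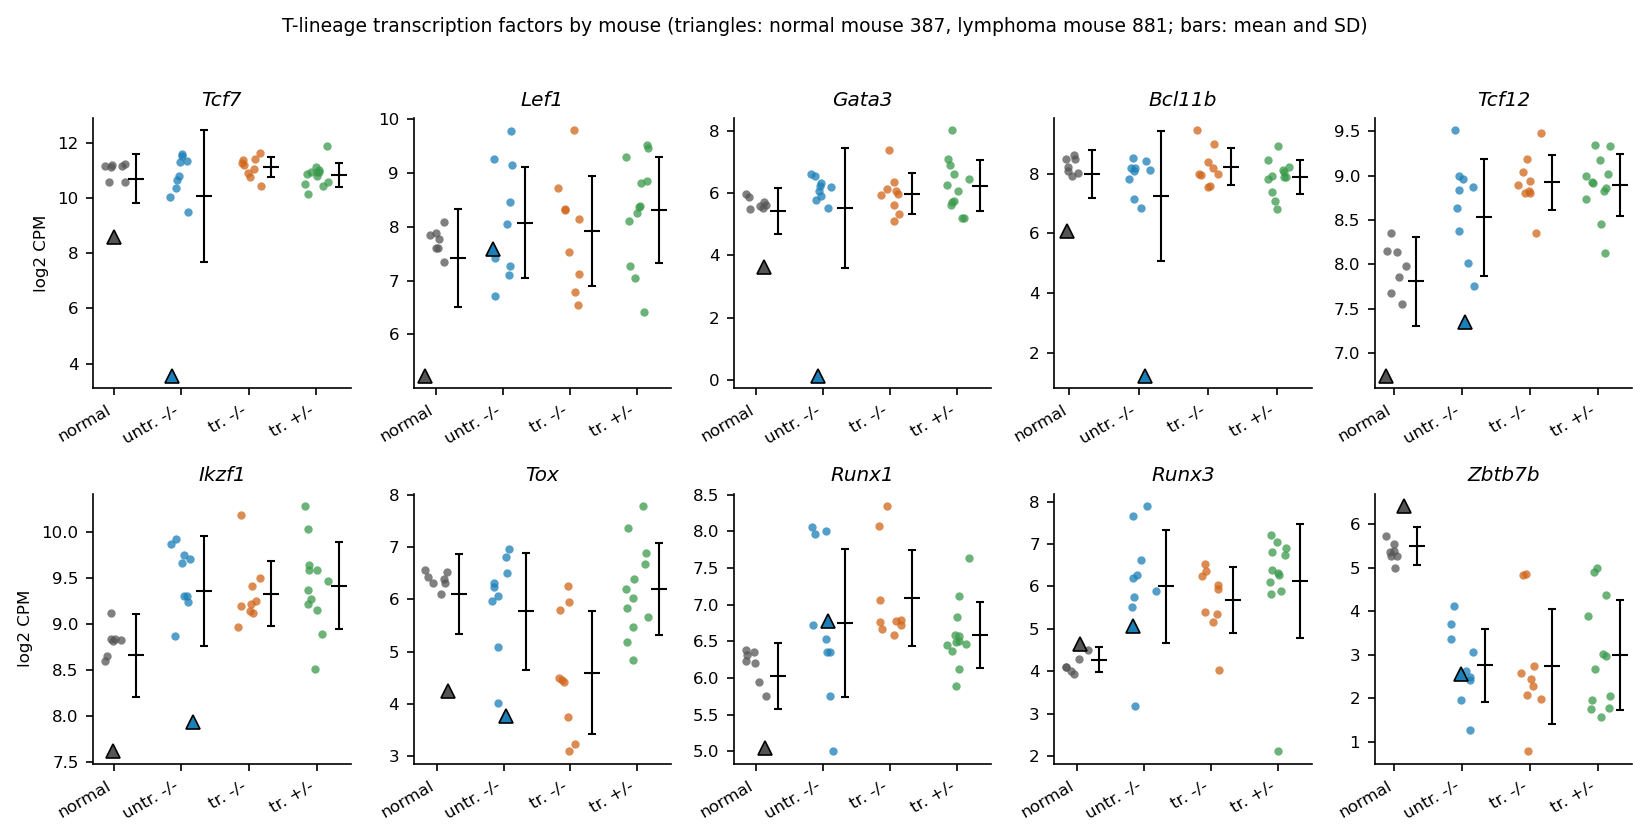
Level of each of the 10 factors in every mouse, as log2 CPM on the vertical axis, with a point per mouse in the normal thymuses and the 3 lymphoma groups. All 31 lymphomas lie below the normal thymuses in Zbtb7b and 28 lie above them in Runx3, while mice 387 and 881 sit far below their groups in Tcf7, Gata3 and Bcl11b.

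Zbtb7b, the BTB zinc finger factor of CD4 T cells (chr3:89377644-89394776, minus strand, GRCm38), was at 31.8, 41.4 and 85.7 CPM (lowest, median and highest) in the 8 normal thymuses. It was at 2.33, 5.94 and 17.4 CPM in the 10 untreated p53-/- lymphomas. In the 9 treated p53-/- lymphomas it was at 1.65, 5.38 and 29 CPM. The 12 treated p53+/- lymphomas had 2.91, 7.05 and 31.7 CPM. No lymphoma of any group reached the normal range, in 10, 9 and 12 mice. All mice of a group fell below the normal range in 4.06%, 8.48% and 5.29% of all genes. The log2 fold changes were -2.38 ± 0.50 (SE, adjusted p = 0.000242), -2.56 ± 0.52 (adjusted p = 9.73e-05) and -2.36 ± 0.47 (adjusted p = 7.18e-05), or 5.19-, 5.89- and 5.15-fold lower.

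The highest normal value of Zbtb7b, 85.7 CPM, came from mouse 387, in which T-lineage markers were low. The other 7 normal thymuses had 31.8 to 52.6 CPM, all above the 31.7 CPM of the highest lymphoma (mouse 884), although only by a narrow margin. Without mice 387 and 881, the log2 fold change in untreated p53-/- lymphomas was -2.19 ± 0.53 (edgeR adjusted p = 0.00116). Markers of thymic epithelium summed to a median of 1790 CPM in normal thymus and of 76.5, 63.7 and 40.7 CPM in the 3 lymphoma groups. Fat markers summed to medians of 2480 CPM and of 52.8, 76.9 and 61.0 CPM. The part of these cells in the difference of Zbtb7b was not tested.

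Runx3, the RUNX factor of CD8 T cells and of innate lymphocytes (chr4:135120652-135177990, plus strand), was at 15.2, 18.4 and 25.0 CPM in normal thymus. It was at 9.02, 66.1 and 239 CPM in untreated p53-/- lymphomas. Treated p53-/- lymphomas had 16.1, 61.9 and 91.8 CPM, and treated p53+/- lymphomas 4.26, 81.8 and 148 CPM. The groups overlapped through 1 lymphoma each, while the other 9, 8 and 11 lymphomas were above every normal thymus. All mice of a group were above the normal range in 6.11%, 10.4% and 8.8% of all genes. Those 3 lymphomas were mouse 157 (9.02 CPM), mouse 663 (16.1 CPM) and mouse 862 (4.26 CPM), of which 157 and 862 lay below every normal thymus. Runx3 rose by log2 values of 2.23 ± 0.47 (SE, edgeR adjusted p = 0.000265), 1.37 ± 0.45 (adjusted p = 0.0104) and 1.97 ± 0.44 (adjusted p = 0.000332), or 4.68-, 2.58- and 3.93-fold. Markers of natural killer and innate lymphoid cells, which also express Runx3, summed to medians of 92.1 CPM in normal thymus and 113, 202 and 193 CPM in the lymphoma groups. Of the 4 markers, Gzma was higher (2.14, 2.13 and 2.89, edgeR adjusted p = 0.0186, 0.0175 and 0.00176), while Klrb1c had values of -1.41, -3.70 and -3.41 (adjusted p = 0.212, 0.00156 and 0.00104) and Il2rb was not called, so the sum does not describe each marker. The part of such cells in the rise was not tested.

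Within each mouse, the log2 ratio of Runx3 to Zbtb7b was -1.22 ± 0.28 (SD, n = 8) in normal thymus. It was 3.25 ± 1.40 (n = 10), 2.94 ± 1.12 (n = 9) and 3.14 ± 1.56 (n = 12) in the 3 lymphoma groups. All 31 lymphomas were above all normal thymuses, including those of mice 157, 663 and 862. The differences of 4.47, 4.16 and 4.36 had two-sided exact permutation p of 2.29e-05, 4.11e-05 and 1.59e-05, and adjusted p of 0.000206, 0.000247 and 0.000206 over 18 comparisons of 3 such ratios. With full separation, these p-values lie at or near the smallest that the group sizes allow. The ratio joins genes already called above, so it is not separate support. Between lymphoma groups the ratio differed by -0.31, 0.20 and -0.11 (treated less untreated p53-/-, treated p53+/- less treated p53-/-, treated p53+/- less untreated p53-/-), with exact permutation p adjusted to 0.768, 0.836 and 0.878. Of the 54 libraries of separately biopsied tumours, the 52 with Zbtb7b counts had ratios of 0.13 to 6.17, above the normal libraries at -1.77 to -0.92. In 2 libraries of mouse 857 Zbtb7b had 0 counts and Runx3 had 33 and 63 counts, so their ratios have no fixed value. Even with Zbtb7b set at 3 counts, Runx3 would be the higher of the pair there.

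**Figure D2:**
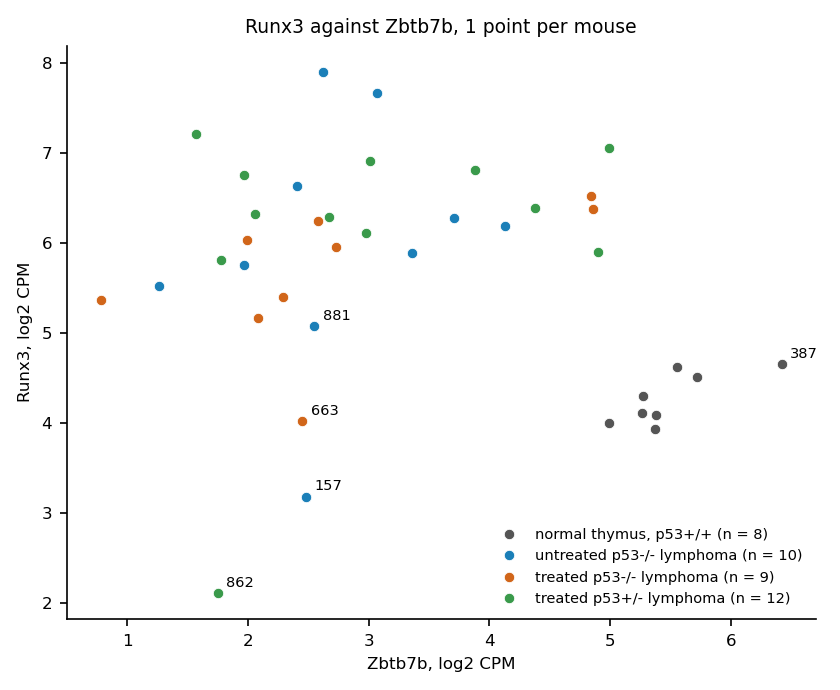
Runx3 on one axis against Zbtb7b on the other, both as log2 CPM, with a point per mouse coloured by group. The normal thymuses form a cluster of high Zbtb7b and low Runx3, and no lymphoma lies within it.

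The coreceptors that these factors are known to regulate were lower or not called. Cd4, the coreceptor of helper T cells, had medians of 679 CPM in normal thymus and 69.9, 101 and 141 CPM in the lymphoma groups. It changed by -2.35, -2.49 and -2.14 on the log2 scale (edgeR adjusted p = 0.000231, 0.000119 and 0.000246). Cd8a had medians of 1040 CPM and of 533, 706 and 497 CPM and was not called. Cd8b1, the other CD8 chain, was called lower in untreated p53-/- (-1.87, edgeR adjusted p = 0.0349) and treated p53+/- lymphomas (-1.70, adjusted p = 0.0325) but not in treated p53-/- (-1.1, adjusted p = 0.198). Over the 30 lymphomas without mouse 881, Zbtb7b and Cd4 had r = 0.41 and rho = 0.45 (permutation p adjusted over 8 relations 0.0691 and 0.0609). Runx3 and Cd8a had r = -0.11 (adjusted permutation p = 0.549) and rho = -0.23 (adjusted p = 0.306), and neither passed the test. These relations, too, were chosen after values were seen.

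Runx1, the RUNX factor of progenitors and early thymocytes (chr16:92601466-92826149, minus strand), was at 33, 74.5 and 83.7 CPM in normal thymus. It was at 31.8, 98.8 and 268 CPM in untreated p53-/- lymphomas, at 95.9, 110 and 327 CPM in treated p53-/- and at 59.2, 90.2 and 199 CPM in treated p53+/- lymphomas. All 9 treated p53-/- lymphomas were above every normal thymus, against 6 of 10 and 9 of 12 in the other groups, a separation upwards that 10.4% of all genes showed in that group. In treated p53-/- lymphomas Runx1 rose by a log2 value of 1.07 ± 0.33 (edgeR adjusted p = 0.00709). The values in the other groups, 0.79 ± 0.34 (adjusted p = 0.0561) and 0.53 ± 0.32 (adjusted p = 0.163), did not pass. In untreated p53-/- lymphomas Runx1 was called in 6 of 23 alternative analyses, with edgeR or DESeq2 adjusted p of 0.0245 to 0.0486, and in treated p53+/- lymphomas with only the 2 groups in the fit (edgeR adjusted p = 0.0245). Between treated p53+/- and treated p53-/- lymphomas the difference was -0.55 ± 0.32 (adjusted p = 0.966).

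Tcf12, the E protein HEB that pairs with E2A in thymocytes (chr9:71842688-72111871, minus strand), was at 107, 242 and 326 CPM in normal thymus. Its medians were 426, 474 and 485 CPM in the lymphoma groups, with 26 of 31 lymphomas above every normal thymus. The log2 fold changes were 0.71 ± 0.22 (edgeR adjusted p = 0.00906), 0.95 ± 0.22 (adjusted p = 0.000506) and 0.91 ± 0.21 (adjusted p = 0.000553). Ikzf1, which encodes Ikaros (chr11:11685003-11772926, plus strand), was at 195, 451 and 551 CPM in normal thymus and had medians of 721, 591 and 679 CPM in the lymphomas. Again 26 of 31 lymphomas were above the normal range. Ikzf1 rose by 0.66 ± 0.23 (edgeR adjusted p = 0.0196), 0.54 ± 0.23 (adjusted p = 0.043) and 0.65 ± 0.22 (adjusted p = 0.0144) on the log2 scale. The call of Ikzf1 in treated p53-/- lymphomas was lost in 11 of 23 alternative analyses. In untreated p53-/- lymphomas the calls of Tcf12 and Ikzf1 were lost with library totals alone and with only the 2 groups in the fit, and that of Ikzf1 also with voom. Library totals alone ended the call of Ikzf1 in treated p53+/- lymphomas as well (0.50, edgeR adjusted p = 0.0709).

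Tox, an HMG-box factor of CD4-lineage development (chr4:6686353-6991557, minus strand), was at 18.8, 81.4 and 94.5 CPM in normal thymus. In treated p53-/- lymphomas it was at 8.48, 21.8 and 76.0 CPM, and 8 of 9 were below the 7 normal thymuses other than mouse 387. Untreated p53-/- lymphomas had 13.6, 71.2 and 125 CPM and treated p53+/- lymphomas 28.6, 69.1 and 222 CPM. Of these, 5 of 10 and 6 of 12 were below the same 7 normal thymuses, and 2 and 4 were above every normal thymus. Tox fell by 1.42 ± 0.44 on the log2 scale in treated p53-/- lymphomas (edgeR adjusted p = 0.00744). The values in untreated p53-/- (-0.08 ± 0.44, adjusted p = 0.903) and treated p53+/- lymphomas (-0.13 ± 0.44, adjusted p = 0.818) did not pass.

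Direct comparison of the lymphoma groups called 0 of 16387 genes with edgeR in each of the 3 contrasts (0.0% called), and so none of the 10 factors. At an unadjusted p under 0.05 there were 1915 genes in the contrast of treatment among p53-/- tumours, 866 in that of genotype among treated tumours (p53+/- against p53-/-) and 1039 in that of treated p53+/- with untreated p53-/- tumours. DESeq2 called 75, 12 and 3 genes and voom 39, 1 and 1 in these contrasts. Tox was the only factor with an unadjusted p under 0.05. Its log2 difference was -1.49 ± 0.48 for treated less untreated p53-/- lymphomas (p = 0.0039, edgeR adjusted p = 0.284) and 1.19 ± 0.44 for p53+/- less p53-/- among the treated (p = 0.0118, edgeR adjusted p = 0.937). Neither passed the test, and 4 of 9 treated p53-/- mice against 9 of 10 untreated ones were labelled male, with sex held as a covariate in the fit. By sex-linked genes 6 of the 9 were male, and the mice that differ from their label, 869 and 870, had the highest Tox of that group (76.0 and 61.8 CPM). With sex taken from expression the difference was -1.09 (edgeR adjusted p = 0.313), and without the 3 mice of differing label it was -1.70 (adjusted p = 0.431).

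**Figure D3:**
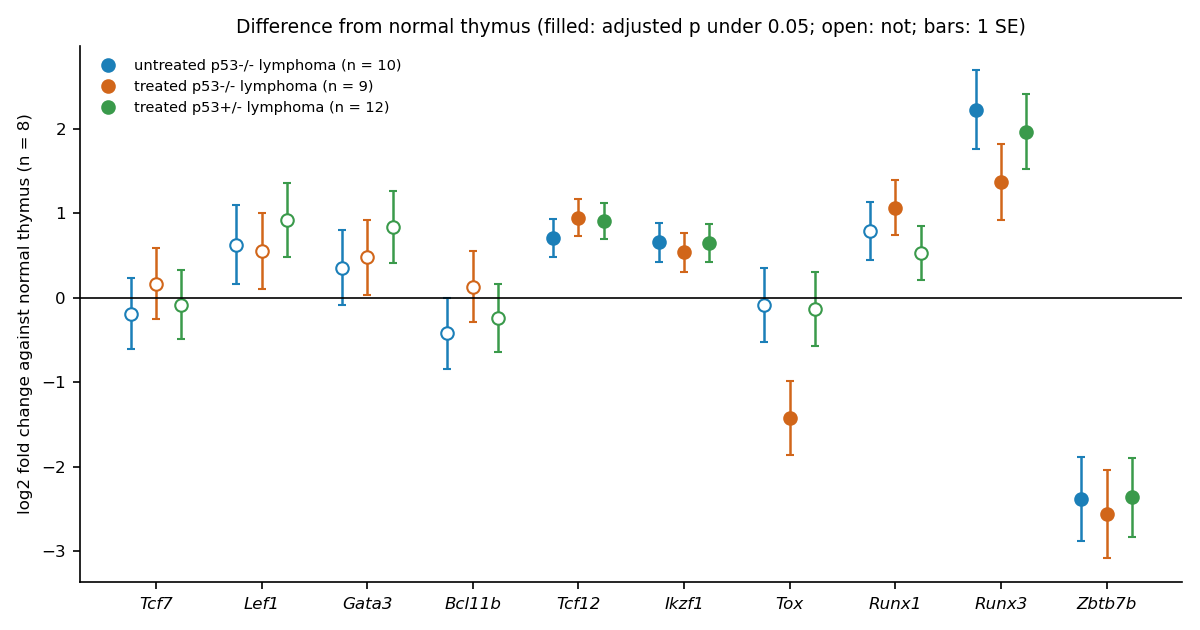
Log2 fold change of each factor with its standard error, for each lymphoma group against normal thymus. Zbtb7b lies between -2.56 and -2.36 and Runx3 between 1.37 and 2.23, while Tcf7 lies between -0.19 and 0.17.

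The factors of commitment had wide normal ranges, whose lower end was mouse 387 in each. Tcf7, the HMG-box factor TCF-1 (chr11:52252371-52283014, minus strand), was at 385, 2260 and 2380 CPM in normal thymus and at medians of 1670, 2360 and 1920 CPM in the lymphoma groups. Its log2 fold changes were -0.19 ± 0.42, 0.17 ± 0.42 and -0.08 ± 0.41 (edgeR adjusted p = 0.749, 0.755 and 0.889). Bcl11b, the zinc finger factor of T-cell commitment (chr12:107910403-108003602, minus strand), was at 67.6, 283 and 391 CPM in normal thymus and at medians of 274, 257 and 238 CPM in the lymphomas. Its log2 fold changes were -0.42 ± 0.42, 0.13 ± 0.42 and -0.24 ± 0.40 (edgeR adjusted p = 0.447, 0.814 and 0.629). Of the 31 lymphomas, 3 were above and 1 below the normal range for Bcl11b, and 9 above and 1 below it for Tcf7. These counts rest on mouse 387: against the other 7 normal thymuses, 3 lymphomas were above and 13 below the range for Bcl11b, and 9 above and 9 below it for Tcf7.

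Gata3, the GATA factor of T-cell and helper T-cell development (chr2:9857078-9890034, minus strand), was at 12.1, 48.0 and 63.2 CPM in normal thymus and at medians of 69.7, 62.3 and 71.7 CPM in the lymphomas. In 17 of 31 lymphomas it was above every normal thymus and in 1 below, while 5 were below the 7 normal thymuses other than mouse 387. The log2 fold changes were 0.36 ± 0.44, 0.48 ± 0.44 and 0.84 ± 0.43 (edgeR adjusted p = 0.534, 0.37 and 0.104). In treated p53+/- lymphomas the adjusted p was 0.0311 with mouse 881 left out of the fit and 0.0426 without mice 387 and 881. Lef1, the partner of TCF-1 at the same DNA motif (chr3:131110471-131224356, plus strand), was at 37.5, 208 and 271 CPM in normal thymus. Its medians in the lymphomas were 229, 284 and 332 CPM, and single tumours reached 870, 886 and 735 CPM. The log2 fold changes of 0.63 ± 0.47, 0.56 ± 0.45 and 0.92 ± 0.44 did not pass (edgeR adjusted p = 0.298, 0.304 and 0.0799), and 18 of 31 lymphomas were above the normal range. None was below it, a count that rests on mouse 387, since 9 were below the other 7 normal thymuses. In treated p53+/- lymphomas Lef1 was called with only the 2 groups in the fit (0.96, edgeR adjusted p = 0.0475).

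On a scale of median CPM per kilobase of annotated exons in normal thymus, Tcf7 was the most abundant of the 10 at 859, followed by Ikzf1 at 78.0, Bcl11b at 34.8 and Lef1 at 23.6. Tcf12 was at 15.6, Gata3 at 12.1, Tox at 10.7, Zbtb7b at 7.41, Runx1 at 6.20 and Runx3 at 3.68 CPM per kilobase. In the lymphoma groups Zbtb7b was the lowest, at 1.06, 0.962 and 1.26, while Runx3 was at 13.2, 12.4 and 16.3 CPM per kilobase. Exon lengths join all isoforms, so genes with many isoforms are placed too low.

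The lymphoma of mouse 881 had the lowest Bcl11b (2.29 CPM), Gata3 (1.03 CPM) and Tcf7 (11.7 CPM) of all 31. The lowest values among the other 30 were 114, 34.0 and 717 CPM. Its Ikzf1 (243 CPM) and Tcf12 (164 CPM) were also the lowest, while Lef1 (193 CPM), Runx1 (110 CPM) and Runx3 (33.5 CPM) were within the range of the others. Tcf7 was at 6.02, 4.75, 21.6 and 17.7 CPM in its 4 biopsies, and Lef1 at 154, 226, 194 and 195 CPM. TCF-1 and LEF-1 transcripts thus stood far apart in this tumour, with a log2 ratio of Tcf7 to Lef1 of -4.04, whereas the normal thymuses averaged 3.28 ± 0.34 (SD, n = 8). Axin2, a feedback target of Wnt signalling, was at 0.913 CPM in this tumour, the lowest of the 31.

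Among the 30 other lymphomas, pooled over the groups, the late factors varied most between mice, an order that did not hold within each group. The standard deviation of log2 CPM was 1.19 for Runx3 and for Tox, 1.15 for Zbtb7b and 1.0 for Lef1, beside a median of 0.49 over all genes. Runx1 had 0.75, Gata3 0.65, Bcl11b 0.59 and Tcf7 0.52, while Tcf12 (0.41) and Ikzf1 (0.4) varied less than the median gene. Within untreated p53-/- lymphomas without mouse 881, Lef1 (1.08) and Runx1 (1.07) varied more than Tox (0.92) and Zbtb7b (0.89). Within treated p53-/- lymphomas, Lef1 (1.03) varied more than Runx3 (0.78).

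Of the 45 pairs of factors, 3 passed the test by Pearson's r over those 30 lymphomas. Runx1 and Runx3 had r = -0.59 (permutation p adjusted over 45 pairs 0.0164) and rho = -0.70 (adjusted p = 0.0009). Without mice 663 and 202, which were farthest from the median, r was -0.47. Within the 3 groups, untreated first and p53+/- last, it was -0.49, -0.82 and -0.74. Mice 202 and 120 had the highest Runx3 (239 and 203 CPM) and the lowest Runx1 (31.8 and 54.3 CPM), and mouse 663 had the highest Runx1 (327 CPM) with the third-lowest Runx3 (16.1 CPM). In normal thymus the log2 ratio of Runx1 to Runx3 was 1.75 ± 0.71 (SD, n = 8), and in the lymphoma groups 0.75 ± 2.02, 1.42 ± 1.37 and 0.45 ± 1.71. The difference of -1.30 in treated p53+/- lymphomas had an exact permutation p of 0.0492, adjusted to 0.221, and did not pass.

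Bcl11b and Runx1 had r = 0.70 (adjusted permutation p = 0.00135) and rho = 0.54 (adjusted p = 0.0254). The value was 0.66 without mice 663 and 24, and 0.87, 0.84 and 0.36 within the 3 groups. Bcl11b and Lef1 had r = 0.53 (adjusted permutation p = 0.033), but rho = 0.43 did not pass (adjusted p = 0.125). By rho alone, Tox was related to Bcl11b at -0.55 (adjusted permutation p = 0.0243) and to Runx1 at -0.59 (adjusted p = 0.0162). Over all 31 lymphomas, 2 pairs passed by r: Runx1 with Runx3 at -0.59 (adjusted permutation p = 0.0137) and Bcl11b with Tcf12 at 0.67 (adjusted p = 0.0072). The second rested on mouse 881 in part, with r = 0.54 without mice 881 and 663.

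**Figure D4:**
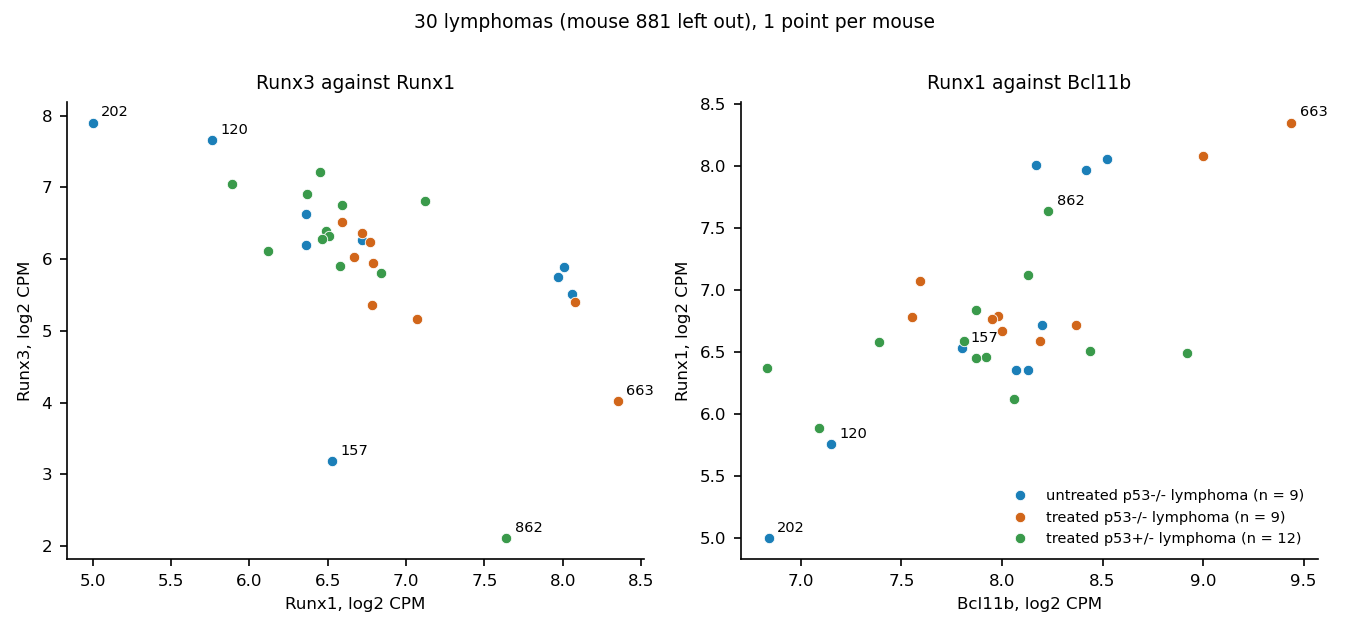
Runx1 against Runx3 and against Bcl11b in log2 CPM, with a point per lymphoma coloured by group. Over the 30 lymphomas without mouse 881, Runx1 is lower where Runx3 is higher (r = -0.59) and higher where Bcl11b is higher (r = 0.70).

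Relations of the factors to 8 pairs with known target genes were chosen after values were seen, as was leaving out mouse 881, so their p-values describe these lymphomas and support no relation. Over all 31 lymphomas 0 of the 8 passed, by r or by rho. In the 30 lymphomas without mouse 881 the values were as follows. Tcf7 and Axin2 had r = -0.51 (permutation p adjusted over 8 relations 0.0171) and rho = -0.44 (adjusted p = 0.0609). The r was -0.60 without mice 120 and 894, and -0.62, -0.56 and -0.24 within the groups. With mouse 881, where both genes were at their lowest, the sign turned (r = 0.58, adjusted permutation p = 0.128, and rho = -0.31, adjusted p = 0.318). Bcl11b and Zbtb16 (PLZF, a factor of innate-like T cells) had r = -0.53 (adjusted permutation p = 0.0171) and rho = -0.35 (adjusted p = 0.15), and r = -0.05 with mouse 881 (adjusted permutation p = 0.909). Zbtb16 was at 190 and 165 CPM in mice 202 and 120, the lymphomas of highest Runx3. Mice 862 and 157, with the lowest Runx3, had the highest Axin2 of the 31 lymphomas (201 and 177 CPM), while the next highest (114 CPM) was in mouse 202, with the highest Runx3. This was seen after the values were known and not tested.

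As the study concerns aneuploidy, each factor was set beside the median log2 ratio to normal thymus of the other genes on its chromosome. Over 31 lymphomas no factor passed by r. Runx3 and chromosome 4 had r = 0.41 (permutation p adjusted over 10 factors 0.213) and rho = 0.56 (adjusted p = 0.013), with r of -0.01, 0.82 and 0.82 within the 3 groups. The median ratio was 0.34 for chromosome 4 and 1.82 for Runx3. Bcl11b and chromosome 12 had r = 0.57 over the 30 lymphomas without mouse 881 (adjusted permutation p = 0.0129), rho = 0.35 (adjusted p = 0.185), and r of 0.56, 0.54 and 0.62 within the groups. These ratios measure expression, not DNA copies.

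By Pearson's r over the 31 lymphomas and 11109 genes, as a description without a test, the genes most like Tcf7 were A630014C17Rik (0.93), Cd27 (0.89) and Fam169b (0.89). Fam169b (0.89), Cd27 (0.88) and Hnrnpll (0.88) were also most like Bcl11b, a likeness that mouse 881 shapes. Without it, Dnmt3a (0.79), Zfp664 (0.78) and Cipc (0.78) were nearest to Bcl11b, and both Dnmt3a and Cipc lie on chromosome 12 as Bcl11b does. Tcf7 was then nearest to A630014C17Rik (0.85), Sqrdl (0.78) and Kcnh3 (0.76). For Tox the nearest were Btbd19 (0.75), Pdp1 (0.74) and Aim1l (0.73), all on chromosome 4 as Tox is. Runx3 was most like Dennd3 (0.84), Rhof (0.80) and Glipr1 (0.79), and Zbtb7b most like Slc11a1 (0.73), a transporter of macrophages, Il6ra (0.71) and Mfsd5 (0.70). Lef1 was nearest to Gm43352 (0.88), whose exons hold bases just before the first Lef1 starts, so that without stated strandedness their reads may not be told apart. Next came Pex11a (0.82) and Afdn (0.81). Runx1 was most like Rab10 (0.76), 4833439L19Rik (0.73) and Myh10 (0.72), and Tcf12 most like Tnfrsf8 (0.83), Tmem151b (0.80) and Fubp3 (0.79). Camk4, a kinase of T cells, was among the 3 nearest genes of both Gata3 and Ikzf1 (0.73 for Ikzf1), but of neither without mouse 881. Without that mouse, Gata3 was nearest to Trim13 (0.74), Slc7a8 (0.72) and Igfbp4 (0.71). Ikzf1 was then nearest to Sgcb (0.75), Slc20a2 (0.71) and Tubgcp3 (0.68). Over all 10 factors, 6 of the 30 nearest genes lay on the chromosome of their factor, 3 of them those of Tox (8 of 30 without mouse 881). On average 5.92% of all genes compared lay on the chromosome of a factor.

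In 13 tumours, 4 or 5 regions were biopsied separately, in 54 libraries. Zbtb7b was below every normal thymus in 53 of the 54, and Runx3 was above in 46 and below in 5. The standard deviation of log2 CPM within a tumour was 0.86 for Zbtb7b, 0.60 for Lef1, 0.47 for Tox, 0.46 for Gata3, 0.45 for Bcl11b and 0.44 for Runx3, beside a median of 0.26 over all genes. Between these tumours it was 1.43, 1.2, 1.03, 1.95, 1.95 and 1.43, beside 0.47. It was largest for Tcf7 (2.13 between, 0.34 within). Without mouse 881 the values between tumours were 0.44 for Tcf7, 0.48 for Bcl11b and 0.85 for Gata3, and those within 0.19, 0.33 and 0.33. Tcf12 had 0.29 within and 0.57 between tumours, and Runx1 0.26 and 0.73. Biopsies differed by more than 1 log2 unit in 8 of the 13 tumours for Zbtb7b, 5 for Runx3, 5 for Tox, 3 for Lef1, 3 for Bcl11b, 2 for Gata3, 2 for Tcf12 and 1 each for Tcf7, Runx1 and Ikzf1. The tumour counted for Tcf7 was that of mouse 881, at low levels of 4.75 to 21.6 CPM. It was also counted for Bcl11b (0.7 to 5.49 CPM) and Gata3 (0.2 to 2.57 CPM). Tumours 903, 325 and 899 had no factor with such a range, which 3.64%, 8.84% and 8.58% of all genes had there. In mouse 857 the range of Zbtb7b rests on libraries with 0 counts, and without that tumour the standard deviation of Zbtb7b was 0.60 within and 1.1 between tumours.

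Of the 13 tumours, that of mouse 884 (treated p53+/-) had the most factors with such a range. Its biopsy 2 had Lef1 at 278 CPM, whereas biopsies 5, 6 and 8 had 15.6, 41.0 and 20.4 CPM. Tox was at 397 CPM in biopsy 2 and at 89.9, 106 and 92.7 CPM in the others, and Runx3 at 208 CPM against 64.8, 81.7 and 79.7 CPM. Zbtb7b did not follow, at 29.4 CPM in biopsy 2 and 37.4, 30.7 and 31.3 CPM in the others. Of the 10 factors 6 had a range above 1 log2 unit, as did 27.7% of all genes, and without biopsy 2 there were 2. T-lineage markers summed to 4430 CPM in biopsy 2 and to 2940, 3230 and 2580 CPM in the others, and fibroblast markers to 304 CPM against 1120, 1230 and 880 CPM. Markers of natural killer and innate lymphoid cells summed to 1580 CPM in biopsy 2 and to 836, 997 and 891 CPM in the others. That sum does not describe each marker. In lymphomas other than mouse 881, Ncr1 reached at most 1.67 CPM, Klrb1c 10.8, Il2rb 235 and Gzma 1160 CPM. B-lineage markers summed to 153 CPM in biopsy 2 against 45.7, 38.7 and 58.2 CPM. The part of the marked cells in the differences was not tested.

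In the treated p53-/- tumour of mouse 870, Tox was at 100, 74.1, 48.1 and 31.2 CPM in its 4 biopsies. A range above 1 log2 unit was found for 5 of the 10 factors there and for 24.4% of all genes, and 2 factors kept it without biopsy 3. Markers of natural killer and innate lymphoid cells summed to 824, 299, 272 and 269 CPM in the same biopsies. As in mouse 884, the sum does not describe each marker, and the part of these cells in Tox was not tested. In the treated p53+/- tumour of mouse 908, Zbtb7b was at 5.79, 9.06, 15.3 and 30.6 CPM in biopsies 3, 5, 7 and 9. B-lineage markers summed to 50.9, 70.5, 146 and 300 CPM in the same biopsies and fat markers to 55.1, 104, 196 and 431 CPM. T-lineage markers summed to 5090, 4590, 4900 and 3640 CPM there. The part of these cells was not tested. In mouse 857 Zbtb7b had 8, 0, 7 and 0 counts. In the 2 libraries at 0, a count of 3, the limit that 0 allows, would equal 2.91 and 1.75 CPM. Those 2 values are over all genes without TMM scaling, unlike the other levels. The low Runx3 of mouse 862 was shared by all 5 biopsies (2.27, 2.59, 3.31, 4.87 and 7.79 CPM), each below every normal thymus.

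Other factors of the T lineage were counted from a list of 32, excluding the 10. In the 3 lymphoma groups, in the order used above, 6, 5 and 7 were higher and 4, 11 and 7 lower than in normal thymus, with median log2 fold changes of 0.17, -0.15 and -0.25. The shares of all genes called, here and for the lists that follow, were 23.2%, 25.4% and 25.6% higher and 17.6%, 26.7% and 25.3% lower, and nothing particular to a list is read from its counts. Tox2, a relative of Tox, rose by 2.50, 3.11 and 3.34 on the log2 scale (edgeR adjusted p = 0.00435, 0.000434 and 0.000182). Foxp3, the factor of regulatory T cells, changed by -3.23, -3.40 and -2.93 on that scale (edgeR adjusted p = 5.71e-07, 1.71e-07 and 2.02e-07). Sox13, a factor of gamma delta T cells, had fitted values of 2.17 in untreated p53-/- (edgeR adjusted p = 0.0431) and 2.56 in treated p53+/- lymphomas (adjusted p = 0.0139). Its medians were 6.59 CPM in normal thymus and 5.90 and 18.8 CPM in those groups, so that the median untreated p53-/- lymphoma was not above the median normal thymus. Egr3, an immediate early factor downstream of the T-cell receptor, had values of -0.41, -3.16 and -2.09 (edgeR adjusted p = 0.649, 0.000357 and 0.00481).

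Of 13 tested genes of early progenitors, none was higher, and 4, 8 and 8 were lower. Their list holds transcription factors and also the receptor genes Kit and Flt3. Meis1, a homeobox factor of stem and progenitor cells, changed by -2.84, -3.83 and -3.82 on the log2 scale (edgeR adjusted p = 0.00016, 2.57e-06 and 3.23e-07). Bcl11a, a relative of Bcl11b expressed in B cells and progenitors, had values of 0.57, -4.83 and -3.75 (edgeR adjusted p = 0.714, 0.000975 and 0.00213), and its untreated group includes mouse 881. Among 20 genes of T-cell identity, 1, 2 and 2 were higher and 6, 3 and 4 lower. Cd5, a signalling inhibitor of T cells, changed by -1.46, -2.17 and -1.84 (edgeR adjusted p = 0.0148, 0.000402 and 0.00102), and Zap70, a kinase of the T-cell receptor, rose by 0.87, 0.96 and 0.86 (edgeR adjusted p = 0.0023, 0.000436 and 0.00109). Ptcra, the pre-T-cell receptor alpha chain and a target of Notch and E proteins, had values of 0.81, 2.42 and 2.20 (edgeR adjusted p = 0.518, 0.0335 and 0.0458). Of 6 tested genes from a list of Wnt feedback genes and relatives of Tcf7, 2, 1 and 2 were higher and 1, 2 and 2 lower. The gene lower in untreated p53-/- lymphomas was Tcf7l2, which is not a feedback gene. Axin2 rose by 1.47 (edgeR adjusted p = 0.0214) in untreated p53-/- and 1.12 (adjusted p = 0.0486) in treated p53+/- lymphomas, and had a value of 0.53 (adjusted p = 0.363) in treated p53-/- lymphomas. Rnf43, which like Znrf3 removes Wnt receptors, had values of 0.25, -1.93 and -1.49 (edgeR adjusted p = 0.794, 0.0149 and 0.0425). Znrf3, an inhibitor of Wnt receptors, rose by 1.14, 0.93 and 0.58 (edgeR adjusted p = 0.000447, 0.00185 and 0.0384). Tcf7l2, a relative of Tcf7, changed by -2.06, -1.93 and -1.99 (edgeR adjusted p = 0.00013, 0.000184 and 3.93e-05). None of these genes was called between lymphoma groups.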

How the data were processed

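RNA sequencing was measured in 81 libraries of 40 mice. The authors deposited 1 table of RSEM expected counts (estimated counts, not scaled between libraries). Per the submitters' processing notes, CASAVA 1.8, fastp, STAR 2.7.2b and RSEM 1.1.17 were used, with build mm10. The strandedness of counting is not given in the sources used here. Gene coordinates came from GENCODE M21 (GRCm38), which matched 99.63% of gene IDs. All 81 columns were used, and library totals were 1030400 to 26871729 counts, so low genes such as Zbtb7b are limited by depth in the smallest libraries.

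Expected counts were summed per mouse and then rounded. Different mice are separate animals. Mice were tested with edgeR 4.0.16 in R 4.3.3 (TMM, filterByExpr, robust quasi-likelihood fit, labelled sex as covariate), in 1 fit of the 4 groups (17841 genes) and 1 of the lymphomas (16387 genes). Genes with a Benjamini-Hochberg adjusted p under 0.05 were called. Fitted fold changes compare mean counts and can differ from differences of mean logs. DESeq2 1.42.0, voom in limma 3.58.1, other scalings, filters, covariates and samples were alternatives. Log2 CPM used a prior count of 2. Ratios were tested by exact permutation (two-sided), correlations with 100000 permutations in numpy 2.4.6, where the smallest possible p is 1e-05. The code was tested on simulated data.

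Genes named beyond the 10 factors were the 3 genes of highest r with each factor (mean log2 CPM of at least 2, no receptor segments) and, in each list, the 2 called genes of largest rise and the 2 of largest fall by mean over the 3 contrasts. Marker genes, Cd8a, Cd8b1 and the target genes were named outside this rule, after their values were seen. The 8 relations to target genes and the tumours singled out were chosen after values were seen. The factors, lists and markers were chosen with earlier results of these data known. Promoters were planned from 250 bases before to 50 after the start, but only the 250 bases before were searched.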

Additional observations from a re-analysis of the deposited data

Results flagged for a closer look

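For the 10 factors and 3 log2 ratios in 3 groups of mice (8 normal thymuses, 10 untreated and 9 treated p53-/- lymphomas), 39 sets of values were examined by Dixon's test. In 12 of them a mouse lay far from the others of its group, where chance gives about 5% in independent sets. These sets share the same mice and are not independent, and all flags came from mice 387, 881 and 869. Values are log2 CPM. The normal thymus of mouse 387 was far below the other normal thymuses in Bcl11b (6.08), Gata3 (3.61), Tcf7 (8.59), Lef1 (5.23), Tox (4.24) and Ikzf1 (7.61). Its T-lineage (10 of 10) and thymic epithelial markers (8 of 8) were below the other normal thymuses, and its B-lineage (8 of 8), fibroblast (5 of 5), endothelial (4 of 4), erythroid (6 of 6) and fat markers (4 of 7) above them. Their part in these values was not tested.

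The untreated p53-/- lymphoma of mouse 881 was far below its group in Bcl11b (1.24), Gata3 (0.13), Tcf7 (3.55) and Ikzf1 (7.93), and in the log2 ratio of Tcf7 to Lef1 (-4.04). The treated p53-/- lymphoma of mouse 869 was far above its group in Ikzf1 (10.18). The treated p53+/- group has 12 mice and was not tested in this way. There Runx3 was at 2.11 in mouse 862 and at 5.81 to 7.21 in the other 11 mice.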

How the results depend on the processing

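No paired analysis was possible because mice of different groups are different animals and their numbers only name them. Depth limits Zbtb7b in single biopsies, and the labels give no sequencing batch. Zbtb7b and Runx3 in all 3 groups, Tcf12 in both treated groups, and Runx1 and Tox in treated p53-/- lymphomas kept their call against normal thymus in all 23 alternatives (leaving out mouse 387 and leaving out the first normal replicate are the same and were counted once). The cause of the changes below was not tested. Settings concerning mice 387, 881 and 857 were chosen after seeing the data, except leaving out 387.

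Of 10 factors, 2 in place of 4 were called in untreated p53-/- lymphomas against normal thymus with library totals alone or with only the 2 groups in the fit. Library totals alone moved the median of all genes by -0.13 in untreated p53-/- and -0.12 in treated p53+/- lymphomas, and the share of calls that were higher from 56.9% to 46.7% and from 50.3% to 43.6%. With voom the shifts were -0.16, -0.06 and -0.10 in the 3 groups, and 44.0%, 44.8% and 43.5% of calls were higher. Without mouse 387 the shifts were 0.12 to 0.15, and 64.3%, 57.2% and 59.9% of calls were higher. Between lymphoma groups, where edgeR called 0 genes, DESeq2 and voom called 75 and 39 (treated against untreated p53-/-), 12 and 1 (treated p53+/- against treated p53-/-) and 3 and 1 (treated p53+/- against untreated p53-/-). The last contrast gave 7 without a count filter and 21 without the sex covariate. With library totals alone 8 pairs of factors passed in place of 2. Without mouse 881, 1 factor passed against its own chromosome in place of 0, 2 relations to target genes in place of 0, and the log2 ratio of Tcf7 to Lef1 in treated p53+/- less untreated p53-/- lymphomas was -0.12 in place of 0.55. In single-biopsy tumours, log2 Runx1/Runx3 in treated p53+/- less normal was -1.51 (exact permutation, adjusted p = 0.0105).

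The direction of log2 fold changes that were not called turned as follows. Treated p53+/- against untreated p53-/-: Bcl11b -0.01 (sex from expression) and -0.00 (without the 3 mice of differing sex genes); Ikzf1 0.01 (no sex covariate), 0.10 and 0.02; Tox 0.33 (no sex covariate), 0.47, 0.27 and 0.02 (single biopsies). In the same contrast Lef1 gave -0.06 (single biopsies), Tcf7 -0.09 (only 2 groups), -0.07 (sex from expression), -0.31 (single biopsies), -0.00 (without 857), -0.09 (without 881) and -0.05 (without the 3 mice), and Zbtb7b 0.53 (no sex covariate), 0.18 (only 2 groups) and 0.01 (without 857). Treated p53+/- against treated p53-/- gave Gata3 -0.02 and Lef1 -0.18 (single biopsies), Ikzf1 -0.02 (voom), Tcf12 0.02 (first biopsy) and Zbtb7b -0.03 (first biopsy), -0.16 (single biopsies) and -0.16 (voom). Treated against untreated p53-/- gave Gata3 -0.07 (without 881), Lef1 0.09 (library totals), 0.08 (only 2 groups), 0.12 (single biopsies), 0.14 (without 857) and 0.04 (without the 3 mice), and Zbtb7b 0.33 (no sex covariate) and 0.03 (single biopsies). Against normal thymus, Gata3 gave -0.12 (voom) in untreated p53-/-, Tcf7 0.04 (only 2 groups) and 0.02 (voom) in treated p53+/-, and Tox 0.10 (no sex covariate), 0.18 (sex from expression) and 0.24 (without the 3 mice) in treated p53+/- lymphomas. Tox in untreated p53-/- lymphomas gave 0.04 (without 881) and 0.01 (without 387 and 881), and when each normal thymus was left out in turn it ranged from -0.11 to 0.03 (without replicate 5).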
